A study of Mus musculus with 6 samples.

Results

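Bone morphogenetic proteins (BMPs) are secreted ligands of the TGF-beta superfamily. They bind a complex of type I and type II receptors on the target cell, the receptors phosphorylate SMAD1, SMAD5 and SMAD8, and these enter the nucleus with SMAD4 to switch on target genes, of which the Id genes and the inhibitory SMADs are the best known. Id proteins lack a DNA-binding region and hold back basic helix-loop-helix factors, which links them to delayed differentiation, while SMAD6 feeds back to dampen the receptors. In hollow organs such as the bladder, epithelium and mesenchyme exchange BMP signals during development.

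The levels of 10 of these genes were followed in the mouse bladder mucosa: the ligands Bmp2, Bmp4, Bmp5 and Bmp7, the type I receptor Bmpr1a, the type II receptor Bmpr2, the targets Id1, Id2 and Id3, and the inhibitor Smad6. They were taken as a named list, matched by Ensembl identifier, out of the 14347 genes used from the 6 expression tables. Every member passed the filter on low counts in every comparison below. The bladders came from wild-type C57BL mice aged 8 weeks, males and females, several mice to a condition, with 2 droplet single-cell RNA-seq libraries (10x Chromium, 3' end) for each of 3 conditions. Healthy mice had no injury. Acutely injured mice were collected 48 h after 1 injection of cyclophosphamide (CPP, a chemotherapy agent whose excreted breakdown products damage the urothelium) at 150 mg/kg. Chronically injured mice received 4 injections at 75 mg/kg, with 11 days of CPP listed. The methods place their collection 48 h after the last injection. CPP was given to the whole animal. The paper calls the 2 libraries of a condition biological replicates. Which mice went into each is not given in the sources used here. For injury, the p-values below measure the spread between these libraries. For comparisons of cell classes, they measure the spread of the differences found within each library.

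Among the members, Smad6 and Id2 were chosen to show a stretch at or upstream of the start site. Each carries a palindrome described as a binding site of SMAD proteins, GTCTAGAC or GGCGCC. It lies inside the RefSeq window from 250 bases before to 50 bases after the start site. Bmpr1a and Bmpr2, whose windows also hold GGCGCC, are not shown. RefSeq windows were found for 7 of the 10 members, Bmp4, Bmp5, Bmpr1a, Bmpr2, Id2, Id3 and Smad6. The stretches are on the minus strand of GRCm38.p6 and run 5′ to 3′, with the palindrome in capitals. The Smad6 stretch, chr9:64022050-64022309, covers the bases before the start site and the first bases of the annotated first exon. The Id2 stretch, chr12:25096254-25096342, lies upstream of the RefSeq start, in an intron of a longer Gencode transcript.
Smad6: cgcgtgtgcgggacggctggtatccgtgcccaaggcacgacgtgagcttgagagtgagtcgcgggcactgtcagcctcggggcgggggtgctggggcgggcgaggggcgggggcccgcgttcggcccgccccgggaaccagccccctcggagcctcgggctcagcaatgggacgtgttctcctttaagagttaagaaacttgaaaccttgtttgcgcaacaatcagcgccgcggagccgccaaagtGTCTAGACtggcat
Id2: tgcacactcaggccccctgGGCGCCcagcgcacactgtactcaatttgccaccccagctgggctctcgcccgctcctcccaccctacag
In the Gencode vM21 annotation of GRCm38, the ligands lie at chr2:133552159-133562885 (Bmp2, plus strand), chr14:46383520-46390669 (Bmp4, minus), chr9:75775364-75900310 (Bmp5, plus) and chr2:172868012-172940321 (Bmp7, minus), and the receptors at chr14:34410734-34503341 (Bmpr1a, minus) and chr1:59763400-59879014 (Bmpr2, plus). The targets lie at chr2:152736251-152737410 (Id1, plus), chr12:25093799-25097140 (Id2, minus) and chr4:136143497-136145755 (Id3, plus), and Smad6 at chr9:63953076-64022059 (minus). GTCTAGAC reads the same on both strands, as does GGCGCC, and neither overlaps the other. The Smad6 palindrome lay at 64022056 to 64022063 across the annotated start site, and 70 of 32851 RefSeq windows of that length (0.213%) held the same letters. GGCGCC was common, with 3898 of 32851 windows (11.9%), and was found in the Id2, Bmpr1a and Bmpr2 windows. The windows of Bmp4, Bmp5 and Id3 held neither. A match describes letters only and no binding was measured.

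Across the 6 libraries, 54604109 to 111985678 UMIs (unique molecular identifiers, 1 per captured transcript) were deposited, with median UMIs per barcode from 5530 to 9138. Healthy 1, acute 1 and chronic 2 were the 3 deeper libraries, with medians of 8665 UMIs or more against 7237 or fewer. Of the barcode sequences, 1637 of 53735 occurred in more than 1 library. Of the 49786 cells left after filtering, most were grouped into urothelial layers, fibroblast-like and myofibroblast-like stromal cells, endothelial cells and immune classes by markers that did not include the members. A group of 1348 mesenchymal cells led by Hbegf and Areg and one of 16 led by Ccl5 stayed unnamed and entered no class, and neither did urothelial cells whose cell cycle score went against their sub-cluster. Levels are given in CPM, the UMIs of a gene summed over all cells of a class in a library and scaled to 1000000 UMIs of that class. In the 57 fibroblasts of chronic 2, the summed level of 8 mesenchymal markers was 11110 CPM against 31970 to 51160 CPM in the other libraries, and that of 12 urothelial markers was 10580 CPM against 1238 to 6120 CPM. The part of this mixture in the fibroblast results was not tested, and the fibroblast ranges below include that library. A mesenchymal sum also mixes fibroblasts and myofibroblasts in proportions that vary between libraries.

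Bmp4 and Bmp5 were stromal transcripts. Bmp4, a ligand that patterns mesenchyme during development, was measured at 288 to 590 CPM with a median of 433 CPM in mesenchymal cells (fibroblasts and myofibroblasts summed) and at 2.46 to 8.21 CPM with a median of 5.55 CPM in urothelial cells (the named layers and cycling classes summed). The ranges did not overlap, and Bmp4 was 82.4-fold higher in mesenchymal cells (log2 fold change 6.36 ± 0.24 SE, n = 6 libraries, adjusted p = 8.1e-09, quasi-likelihood test of edgeR, Benjamini-Hochberg adjusted, library as a block). Bmp5, a ligand known from skeletal patterning, was measured at 20.8 to 274 CPM with a median of 193 CPM in mesenchymal cells and at 0.205 to 8.92 CPM with a median of 1.59 CPM in urothelial cells. It was 78.2-fold higher in mesenchymal cells (log2 fold change 6.29 ± 0.35 SE, adjusted p = 8.2e-08) in 6 of 6 libraries.

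Of the 10 members, 4 were higher in mesenchymal cells, against 31.4% of the 14040 genes tested, and 1 was lower, against 37.7%. The median log2 fold change was 0.01 over the members and -0.12 over all genes tested, so the zero line of this comparison lies slightly above the typical gene. Besides Bmp4 and Bmp5, Id3 was 9.57-fold higher (log2 fold change 3.26 ± 0.20 SE, adjusted p = 1.3e-07) and Smad6 was 1.68-fold higher (log2 fold change 0.75 ± 0.17 SE, adjusted p = 0.0023) in 5 of 6 libraries. Id2 was the member that was lower in mesenchymal cells, by 1.87-fold (log2 fold change -0.90 ± 0.12 SE, adjusted p = 4.6e-05). Neither receptor passed the test, with Bmpr1a at 57.6 ± 5.01 CPM (SD, n = 6) in mesenchymal and 61.1 ± 8.78 CPM in urothelial cells, and Bmpr2 at 65.9 ± 9.44 and 59.1 ± 8.27 CPM. Bmp7 missed the threshold here (log2 fold change -0.40 ± 0.24 SE, adjusted p = 0.16), and passed it without acute 2 (-0.58, adjusted p = 0.049).

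**Figure D1:**
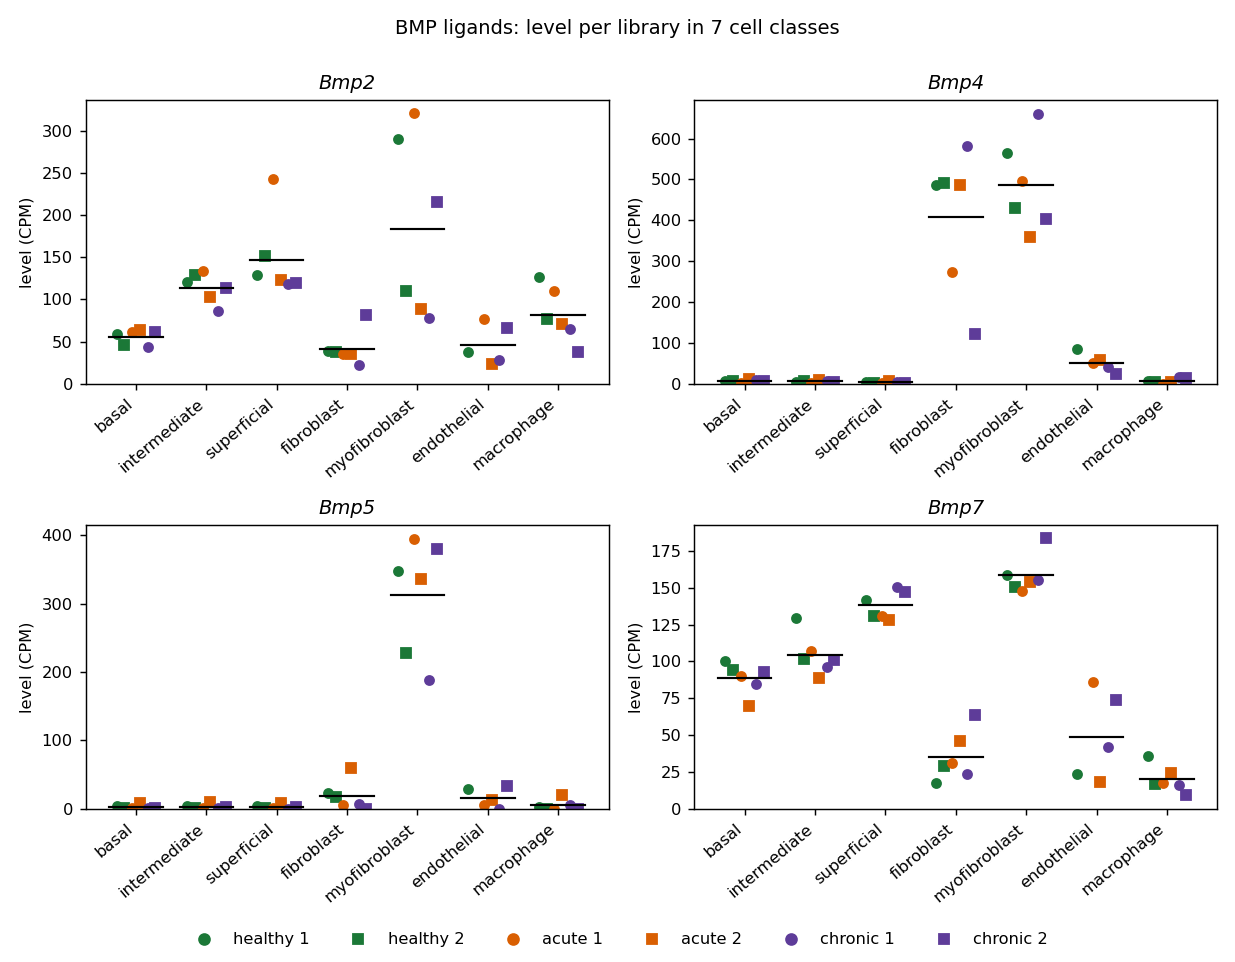
Level of the 4 ligands in CPM (vertical axis, linear, from 0) in 7 cell classes (horizontal axis), with 1 point per library, coloured by condition and shaped by replicate, and a black line at the mean over libraries. Bmp4 is high in both stromal classes, Bmp5 stands out in myofibroblasts, and Bmp2 and Bmp7 are measured in both urothelium and myofibroblasts.

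Droplet libraries hold free RNA, so the share of cells with at least 1 UMI was set beside that in other classes. Only cells with at least 2000 UMIs entered these shares, each thinned to 2000 UMIs. Left out were 1758 fibroblasts, 217 myofibroblasts, 224 endothelial cells, 262 NK and T cells and 62 macrophages, among others. Median depths are of all cells of a class. Macrophages were taken to lack Bmp4 and Bmp5, and whether they lack Bmp2 was not tested. Bmp4 was seen in 49.2 ± 17.8% of fibroblasts and 55.6 ± 6.10% of myofibroblasts (SD, n = 6), whose median depths ranged from 1923 to 3463 and from 2156 to 3895 UMIs per cell. In macrophages, with median depths of 2395 to 3934 UMIs, the share was 1.18 ± 1.70%, and in basal, intermediate and superficial cells it was 1.33 ± 0.83%, 1.15 ± 0.62% and 0.73 ± 0.43%. Bmp4 shares in the urothelium thus lay within the range of macrophages, at 0 to 4.35%, and are not read as expression. The same reading is taken for Bmp5, with 0.31 ± 0.49% in macrophages and 0.52 ± 0.75% in basal cells against 44.5 ± 9.56% in myofibroblasts. Macrophages numbered 40 to 151 per library, so their shares rest on few cells, and the part of free RNA was not tested. The folds of Bmp4 and Bmp5 over urothelial cells given above divide by these low levels and are not read as exact. Before thinning, over all basal cells, Bmp4 shares were 0.652 to 5.07%. Bmp2 shares in basal cells, at 10.2 ± 1.62%, and in intermediate cells, at 15.1 to 21.1%, were within the range of macrophages, at 6.78 to 22.4%. The intermediate shares lay above all libraries of fibroblasts (4.40 to 12.3%), endothelial cells (5.77 to 9.43%) and the immune class led by Cd74 and H2-Aa (2.5 to 9.68%), and overlapped those of mural cells (11.9 to 21.7%) and NK and T cells (4.17 to 23.5%). Superficial cells, at 19.3 to 34.6%, overlapped that range and had a higher mean, 24.3 ± 5.92% against 12.1 ± 5.54% in macrophages, from deeper cells with medians of 6743 to 10619 UMIs. Bmp7 shares ranged from 14.3 to 27.3% over the 3 urothelial layers and from 24.9 to 28.1% in myofibroblasts, all above the 0 to 5.10% of macrophages and the 2.87 to 12.3% of fibroblasts, while endothelial cells, at 0 to 15.4%, overlapped the lowest basal shares.

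The stromal subtypes shared Bmp4 and differed in the other 3 ligands. Bmp5 was measured at 348, 227, 395, 337, 189 and 380 CPM in myofibroblasts of healthy 1, healthy 2, acute 1, acute 2, chronic 1 and chronic 2, and at 23.3, 16.2, 5.28, 60.0, 5.92 and 0 CPM in fibroblasts of the same libraries, the last allowing up to 16.8 CPM (exact Poisson 95% limit, counting error only). The lowest myofibroblast value lay above the highest fibroblast value, and Bmp5 was 15.8-fold higher in myofibroblasts (log2 fold change 3.99 ± 0.34 SE, n = 6 libraries, adjusted p = 4.7e-07, quasi-likelihood test of edgeR, Benjamini-Hochberg adjusted). Bmp7, a ligand known from kidney development, was measured at 148 to 184 CPM with a median of 155 CPM in myofibroblasts and at 17.3 to 63.7 CPM with a median of 29.7 CPM in fibroblasts, and was 5.17-fold higher (log2 fold change 2.37 ± 0.18 SE, adjusted p = 1.9e-07) in 6 of 6 libraries.

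Bmp2, a ligand known as an inducer of bone and a regulator of epithelia, was 4.35-fold higher in myofibroblasts than in fibroblasts (log2 fold change 2.12 ± 0.24 SE, adjusted p = 1.1e-05) in 6 of 6 libraries. Myofibroblasts held Bmp2 at 290, 110, 321, 88.2, 77.8 and 215 CPM, in the library order above, and fibroblasts at 38.2, 37.0, 34.9, 35.6, 22.7 and 81.9 CPM. The highest fibroblast value, that of chronic 2, lay above the lowest myofibroblast value, that of chronic 1. Bmp4 was measured at 360 to 661 CPM in myofibroblasts and 123 to 583 CPM in fibroblasts, ranges that overlapped, and missed the threshold (log2 fold change 0.33 ± 0.21 SE, adjusted p = 0.32). With 3 members higher against 10.9% of the 10789 genes tested and 1 lower against 8.25%, the members that passed were these ligands and Id2, which was 1.97-fold lower in myofibroblasts (log2 fold change -0.98 ± 0.16 SE, adjusted p = 0.00026), at 94.5 to 256 CPM against 176 to 403 CPM.

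Within each stromal class the sub-clusters kept this order for Bmp5, with values given as a description. Fibroblasts led by Pcolce2, Clec3b and Pi16 held Bmp5 at 7.66 ± 3.86 CPM (SD, n = 5 libraries), those led by Bglap2, Has1 and Scara5 at 16.2 ± 21.1 CPM (n = 6), those led by Hspa1b and Dcxr at 32.0 ± 43.5 CPM (n = 3) and those led by Inmt and Tcf21 at 61.6 ± 55.0 CPM (n = 5). These averages cover different libraries. In acute 1, acute 2 and chronic 1, which held both of the last 2 groups, Bmp5 was 14.4, 81.5 and 0 CPM in the Hspa1b fibroblasts and 0, 82.4 and 16.1 CPM in the Inmt fibroblasts. These values had no shared order. Differences between these sub-clusters were not tested. More of the Pcolce2 (99.8%) and Bglap2 cells (99.5%) scored as fibroblasts over myofibroblasts than of the Inmt (84.4%) and Hspa1b cells (70.0%). In all fibroblasts the thinned share of cells with a UMI of Bmp5 was 0 to 11.1%, against 0 to 5.77% in endothelial cells. The part of myofibroblast-like cells or free RNA in these values was not tested. Over the 4 myofibroblast sub-clusters Bmp5 was measured at 156 to 479 CPM in each library with enough cells, apart from the sub-cluster led by Mfap4, Mdk and Aldh1a2 in chronic 1, at 22.1 CPM from 1 UMI in 20 cells. The sub-cluster led by Gatm, Cxcl14 and Ptn averaged 369 ± 28.9 CPM (n = 4). Bmp2 was measured at 23.2 ± 2.88 CPM in the Pcolce2 fibroblasts and at 60.9 ± 26.6 CPM in the Inmt fibroblasts, and at 105 ± 72.2 to 243 ± 145 CPM over the myofibroblast sub-clusters.

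Id1 and Id3 in the Gatm myofibroblasts were measured at 304 ± 139 and 1480 ± 442 CPM (n = 4), against 643 ± 217 and 2620 ± 639 CPM (n = 6) in the myofibroblasts led by Cxcl10, Actg2 and Pde4b. Within a library the Gatm sub-cluster was the lower of the pair for both genes in healthy 1, healthy 2, acute 1 and acute 2, the libraries with enough cells of both, for instance at 326 against 661 CPM of Id1 and 1435 against 2837 CPM of Id3 in healthy 1. This difference was not tested.

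Bmp2 in myofibroblasts was high in the 3 deeper libraries and low in the other 3. Depth here is that of all barcodes of a library. The myofibroblasts of acute 2, not a deeper library, held 10724864 UMIs in 2736 cells. Those of chronic 2, a deeper library, held 315644 UMIs in 96 cells, which is fewer per cell. The 3 deeper libraries averaged 276 ± 54.4 CPM (SD, n = 3) and the other 3 averaged 92.0 ± 16.5 CPM, a log2 ratio of 1.58 with no overlap, and each condition had 1 library on either side of the gap. Within the Cxcl10/Actg2 sub-cluster alone the averages were 305 ± 42.2 and 120 ± 13.1 CPM. The summed level of 7 mural markers, Acta2 among them, was lower in the myofibroblasts of the deeper libraries. It was 932.6, 842.2 and 532.2 CPM in healthy 1, acute 1 and chronic 2. In healthy 2, acute 2 and chronic 1 it was 2072, 1806 and 1772 CPM. Of the 10 members, 3 (Bmp2, Bmp5 and Bmpr2) did not overlap between deeper and other libraries in myofibroblasts, against 18.8% of the genes tested there. This count used levels scaled by edgeR's TMM normalization factors, not the plain CPM printed here. Bmp5 averaged 374 ± 23.9 and 251 ± 76.8 CPM, while Bmp4 averaged 488 ± 81.9 and 484 ± 157 CPM. This grouping was made after the data were seen and was noticed through Bmp2. The place of Bmp2 in that count is therefore no independent evidence. The part of depth and of the mural markers in the grouping was not tested.

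**Figure D2:**
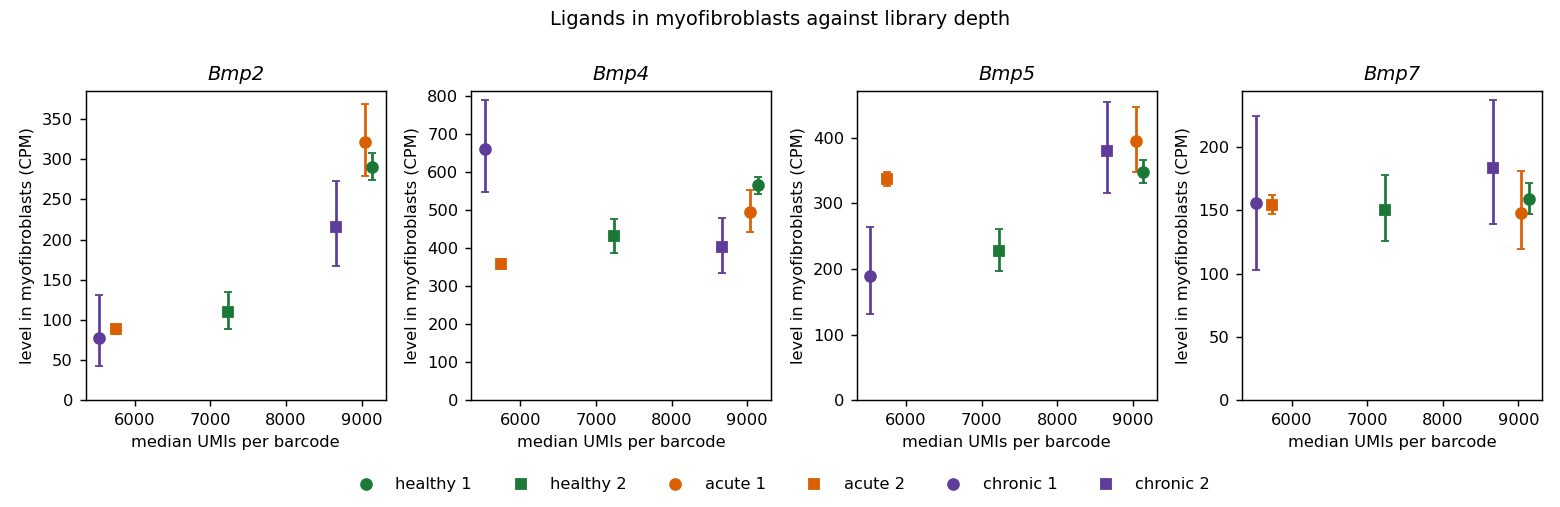
Level of the 4 ligands in myofibroblasts in CPM (vertical axis, linear, from 0) against the library's median UMIs per barcode (horizontal axis), 1 point per library with its exact Poisson 95% interval, coloured by condition and shaped by replicate. For Bmp2 the 3 deeper libraries lie at 215 to 321 CPM and the other 3 at 77.8 to 110 CPM.

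Along the urothelial layers, from basal cells on the basement membrane through intermediate cells to the superficial cells that line the lumen, the Id targets decreased and Bmp2 and Bmp7 increased. Id1 was measured at 784 to 2230 CPM with a median of 1185 CPM in basal cells, at 433 to 1068 CPM with a median of 626 CPM in intermediate cells and at 266 to 514 CPM with a median of 370 CPM in superficial cells. Although the ranges overlapped between libraries, the order held within 6 of 6 libraries at both steps. Id1 was 1.88-fold higher in basal than in intermediate cells (log2 fold change 0.91 ± 0.05 SE, n = 6 libraries, adjusted p = 7.0e-11, quasi-likelihood test of edgeR, Benjamini-Hochberg adjusted) and 1.63-fold lower in superficial than in intermediate cells (-0.71 ± 0.07 SE, adjusted p = 1.6e-07).

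Of the members, Id3 had the largest difference between superficial and intermediate cells. Its level was 308 to 899 CPM with a median of 427 CPM in basal cells, 172 to 352 CPM with a median of 208 CPM in intermediate cells and 45.8 to 108 CPM with a median of 96.0 CPM in superficial cells, where no library reached the intermediate range. The differences were 2.08-fold higher in basal cells (log2 fold change 1.05 ± 0.06 SE, adjusted p = 6.3e-11) and 2.47-fold lower in superficial cells (-1.30 ± 0.10 SE, adjusted p = 5.7e-09), each in 6 of 6 libraries. Id2 followed the same order at 443 to 995, 294 to 557 and 114 to 242 CPM, 1.57-fold higher in basal cells (0.65 ± 0.06 SE, adjusted p = 3.4e-08) and 2.19-fold lower in superficial cells (-1.13 ± 0.09 SE, adjusted p = 6.6e-09).

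Bmp2 ran against the Id genes, at 43.3 to 63.8 CPM in basal, 85.9 to 133 CPM in intermediate and 118 to 243 CPM in superficial cells. Basal cells were 2.13-fold below intermediate cells without overlap (log2 fold change -1.09 ± 0.08 SE, adjusted p = 1.7e-09), and superficial cells 1.33-fold above them (0.41 ± 0.09 SE, adjusted p = 0.00055), in 6 of 6 libraries at each step. Bmp7 was measured at 69.4 to 100.4 CPM, 88.5 to 130 CPM and 128 to 150 CPM in the same order, 1.22-fold lower in basal (-0.29 ± 0.05 SE, adjusted p = 0.00016) and 1.41-fold higher in superficial cells (0.49 ± 0.07 SE, adjusted p = 7.6e-06). The ordering of both ligands along the layers was opposite to that of the 3 Id genes in each of the 6 libraries. The shares of basal and intermediate cells with a UMI of Bmp2 overlapped those of macrophages, as given above, and the part of free RNA in the Bmp2 levels was not tested.

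**Figure D3:**
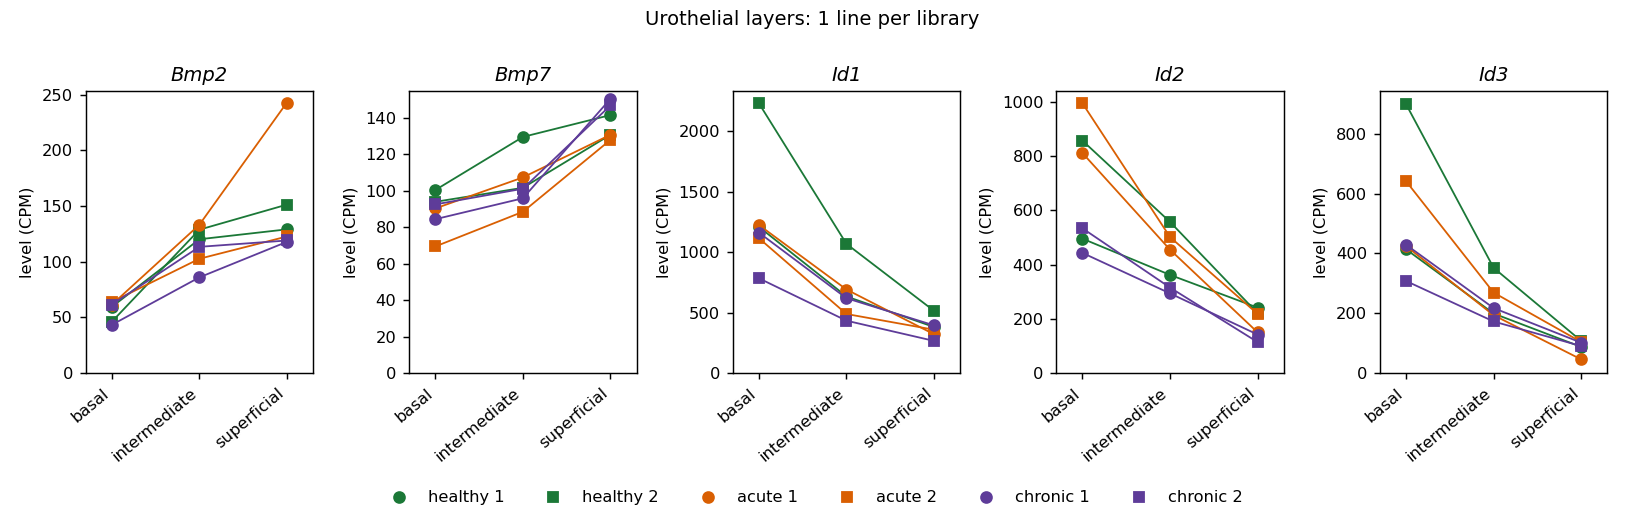
Level in CPM (vertical axes, linear, from 0) of Bmp2, Bmp7, Id1, Id2 and Id3 in basal, intermediate and superficial cells (horizontal axis), with 1 line per library, coloured by condition. Within each library Id1, Id2 and Id3 fall and Bmp2 and Bmp7 climb from basal to superficial cells.

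Of the 10 members, 4 were higher in basal than in intermediate cells (Id1, Id2, Id3 and Smad6), against 23.8% of the 12877 genes tested, and 2 were lower (Bmp2 and Bmp7), against 21.5%. Between superficial and intermediate cells 2 members were higher (Bmp2 and Bmp7), against 24.9% of 12821 genes, and 5 were lower, against 26%. Smad6 in basal cells (1.22-fold, log2 fold change 0.29 ± 0.11 SE, adjusted p = 0.035) lost its call in 6 of 11 alternatives, including DESeq2 (adjusted p = 0.10) and leaving out healthy 1 (0.098), healthy 2 (0.11), acute 1 (0.13) or acute 2 (0.052). When cells were clustered without integration, basal and intermediate cells were drawn differently, and the basal class reached 20 cells in healthy 2 (3088 cells) and chronic 1 (20 cells) only. There Id1 (log2 fold change 0.81, adjusted p = 0.15), Id2 (0.46, adjusted p = 0.42), Smad6 (0.29, adjusted p = 0.42) and Bmp7 (-0.28, adjusted p = 0.58) kept their direction without passing. In superficial cells the type I receptor Bmpr1a was 1.21-fold lower than in intermediate cells (log2 fold change -0.28 ± 0.06 SE, adjusted p = 0.0013), at 40.2 to 56.2 CPM against 49.7 to 71.4 CPM. Bmp4 was also called lower there, at a level not read as expression. That call was lost in 7 of 11 alternatives, without healthy 2, acute 1, acute 2 or chronic 2 among them (adjusted p = 0.078, 0.059, 0.090 and 0.057).

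The immediate-early genes, which are known to be induced by tissue dissociation, differed between the same layers. Of 20 such genes, 19 were higher in basal than in intermediate cells, against 23.8% of all genes tested (median log2 fold change 0.49, and 0.00 over all genes tested), and 12 were lower in superficial than in intermediate cells, against 26% (median -0.35, and -0.01 over all genes tested). Between mesenchymal and urothelial cells 14 were higher, against 31.4%, and 1 lower, against 37.7% (median 1.21, and -0.12 over all genes tested). In cycling against non-cycling urothelium 10 were lower, against 21.5% (median -0.25, and -0.07 over all genes tested). In myofibroblasts against fibroblasts 5 were higher, against 10.9%, and 2 lower, against 8.25%. In endothelial against mesenchymal cells 2 were higher, against 15.5%, and 7 lower, against 22.1%. Their part in the member differences of these comparisons was not tested.

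Cycling urothelial cells, compared with non-cycling ones of the same libraries, had 0 members higher by edgeR's quasi-likelihood test, against 17.1% of the 13482 genes tested, and 4 lower, against 21.5%. DESeq2 called 3 members in all, and 4 had an unadjusted p under 0.05 by either tool. The shares over all genes that match these counts are not given here, so the counts are not read further. Bmp2 was 1.79-fold lower, at 40.4 to 81.8 CPM in cycling against 86.2 to 146 CPM in non-cycling cells, ranges without overlap (log2 fold change -0.84 ± 0.11 SE, adjusted p = 2.6e-06). The layers differed too, as 93 of 105 cycling cells in healthy 1, 45 of 53 in healthy 2 and 59 of 172 in chronic 2 had the basal profile, while 3934 of the non-cycling cells of healthy 1 were intermediate and 1046 basal. Bmp2 in cycling basal cells was 25.1 to 59.0 CPM against 43.3 to 63.8 CPM in non-cycling basal cells, ranges that overlapped, and the part of the layers in this difference was not tested. Bmpr2, the type II receptor, was 1.41-fold lower, at 33.0 to 58.7 CPM against 50.5 to 70.0 CPM (-0.49 ± 0.09 SE, adjusted p = 8.5e-05). Smad6 (-0.58 ± 0.17 SE, adjusted p = 0.0082) lost its call without acute 1 (-0.53, adjusted p = 0.085) and without integration (-0.45, adjusted p = 0.10). Id2 (-0.28 ± 0.09 SE, adjusted p = 0.015) lost it without integration (-0.13, adjusted p = 0.56), by DESeq2 (adjusted p = 0.053) and without healthy 2 (adjusted p = 0.053), acute 1 (0.050), chronic 1 (0.057) or chronic 2 (0.12). Cycling cells with a basal profile and those with a luminal profile held Id1 at 1118 ± 436 CPM (SD, n = 6) and 338 ± 65.2 CPM (n = 4), and Id3 at 527 ± 275 and 80.5 ± 28.2 CPM. In acute 1, acute 2, chronic 1 and chronic 2, the libraries with enough cells of both, the basal profile had the higher value of both genes, for instance 1013 against 340 CPM of Id1 in acute 1. This difference was not tested.

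Endothelial cells, which line the vessels of the lamina propria, could be compared with mesenchymal cells in 5 libraries, since healthy 2 had too few. They numbered 27 to 322 per library and held 1709 to 6604 CPM of 8 endothelial markers, of which none was at 0. Beside these they held 3080 to 9778 CPM of mesenchymal markers, Vim and Sparc among them, and 2531 to 15850 CPM of urothelial markers. The part of free or mixed RNA in these values was not tested. Of the members, 6 were lower than in mesenchymal cells, against 22.1% of the 8850 genes tested, and 1 was higher, against 15.5%. Bmp4 was measured at 85.2, 49.6, 57.6, 41.6 and 24.6 CPM in healthy 1, acute 1, acute 2, chronic 1 and chronic 2 and was 9.38-fold lower than in mesenchymal cells (log2 fold change -3.23 ± 0.22 SE, n = 5 libraries, adjusted p = 4.6e-09, quasi-likelihood test of edgeR, Benjamini-Hochberg adjusted). Bmp5 was 16.2-fold lower (-4.02 ± 0.32 SE, adjusted p = 3.0e-08) and Bmp2 3.38-fold lower in 4 of 5 libraries (-1.76 ± 0.27 SE, adjusted p = 5.2e-05).

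The receptors were called in opposite directions in endothelial cells. Bmpr1a was measured at 18.9, 18.0, 11.5, 13.9 and 57.5 CPM, in the same library order, and was 3.47-fold lower than in mesenchymal cells (log2 fold change -1.80 ± 0.33 SE, adjusted p = 0.00036), while Bmpr2 was measured at 142, 104, 117, 55.5 and 140 CPM and was 1.45-fold higher (0.53 ± 0.20 SE, adjusted p = 0.049). The Bmpr1a values of chronic 1 and chronic 2, with 27 endothelial cells each, rest on few UMIs. That of chronic 2 was near the mesenchymal mean given above. The Bmpr2 call was lost under DESeq2 (adjusted p = 0.051), without the filter on low counts (0.069) and without healthy 1 (0.13), acute 2 (0.099) or chronic 2 (0.090). Id3 was 4.06-fold lower (-2.02 ± 0.29 SE, adjusted p = 3.3e-05). Its endothelial level ranged from 172 CPM in chronic 2 to 1985 CPM in acute 2, below the mesenchymal level in each of the 5 libraries. Id1 ranged from 550 to 1972 CPM and missed the threshold (0.36 ± 0.24 SE, adjusted p = 0.28). Bmp7 (-1.54 ± 0.37 SE, adjusted p = 0.0033) was lower in 3 of 5 libraries and lost its call without acute 2 (-0.86, adjusted p = 0.069).

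**Figure D4:**
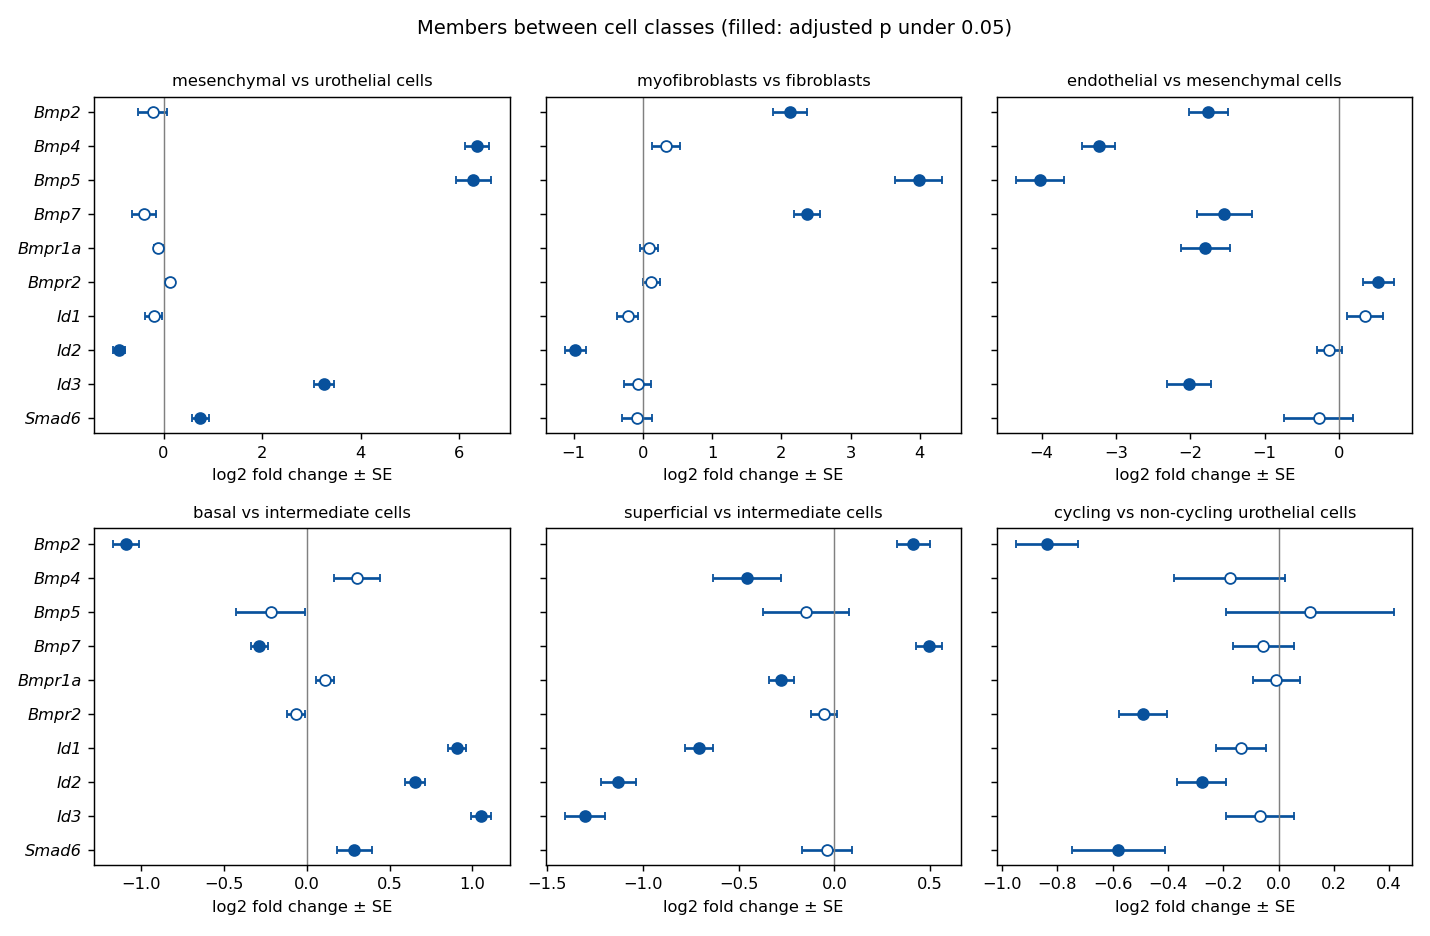
Log2 fold change (horizontal axes, scaled separately in each panel) with its standard error for each of the 10 members (vertical axis) in 6 comparisons between cell classes of the same libraries, filled where the adjusted p was under 0.05. Bmp4, Bmp5 and Id3 lie far to the right in mesenchymal against urothelial cells, and Bmp2, Bmp5 and Bmp7 in myofibroblasts against fibroblasts.

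After injury no member passed the test. In basal, intermediate and superficial cells, fibroblasts and myofibroblasts, 0 of 10 members were called for either acute or chronic injury by the quasi-likelihood test of edgeR (Benjamini-Hochberg adjusted) or by DESeq2. By edgeR 1 member had an unadjusted p under 0.05, Id2 in chronic superficial cells, and by DESeq2 1 did in each of chronic basal, intermediate, superficial and fibroblast cells. Over all genes tested, 0% were called in basal, intermediate and superficial cells in either injury, 0.00915% in fibroblasts in each, and 0.0363% (acute) and 0% (chronic) in myofibroblasts, with 219 to 720 genes at an unadjusted p under 0.05 and 8 to 56 called by DESeq2 over these 10 comparisons. Both injuries were compared with the same healthy libraries.

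The targets gave the lowest unadjusted p-values in chronic urothelium. Immediate-early genes, 0 of 20 called, had median log2 fold changes of -0.29, -0.19 and -0.15 in chronic basal, intermediate and superficial cells. In acute libraries the medians were -0.20, -0.24 and -0.30. Medians over all genes tested were -0.003 to 0.005. The part of these genes in the target values was not tested. Id2 in superficial cells was measured at 242 and 221 CPM in healthy, 150 and 218 CPM in acute and 142 and 114 CPM in chronic libraries. Chronic values lay below both healthy ones, with a log2 fold change of -0.87 ± 0.26 SE (adjusted p = 0.69 by edgeR's quasi-likelihood test; -1.03 to -0.43 over 13 alternatives). In intermediate cells Id2 was measured at 362 and 557 CPM in healthy and 294 and 315 CPM in chronic libraries (log2 fold change -0.57 ± 0.26 SE, adjusted p = 0.98; -0.87 to -0.20 over 13 alternatives).

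Id1 in basal cells was measured at 1209 and 2230 CPM in healthy, 1224 and 1115 CPM in acute and 1161 and 784 CPM in chronic libraries. Healthy 2 was the high value of that series, and the chronic log2 fold change of -0.77 ± 0.37 SE (adjusted p = 0.99) ranged from -1.19 to -0.22 over 12 alternatives. Smad6 in basal cells was measured at 11.7 and 16.8 CPM in healthy, 15.7 and 9.34 CPM in acute and 7.35 and 8.93 CPM in chronic libraries (chronic log2 fold change -0.79 ± 0.37 SE, adjusted p = 0.99). In superficial cells Smad6 was measured at 10.8 and 9.01 CPM in healthy and 5.02 and 7.51 CPM in chronic libraries (-0.69 ± 0.37 SE, adjusted p = 0.83). Smad6 thus lay below both healthy libraries in both chronic ones in either layer, within a spread that the test did not separate from 0.

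Counts of members whose injured and healthy libraries did not overlap were read against the same share over all genes tested. Both used levels scaled by edgeR's TMM normalization factors, not the plain CPM printed above. By plain CPM, Id2 in acute superficial cells and Id1 in chronic basal cells also did not overlap, but are not counted here. In basal cells the counts were 2 of 10 in acute, against 28.3%, and 2 of 10 in chronic, against 30.6%. Intermediate cells had 0, against 26.1%, and 4 (Bmp2, Bmp7, Bmpr1a and Id2), against 33.1%, and superficial cells had 0, against 32.6%, and 4 (Bmp2, Bmp7, Id2 and Smad6), against 34.7%. In fibroblasts the counts were 4, against 30.2%, and 2, against 40.9%. Myofibroblasts had 3, against 30.3%, and 1, against 35.6%. The counts thus ranged from 0 to 4 of 10.

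**Figure D5:**
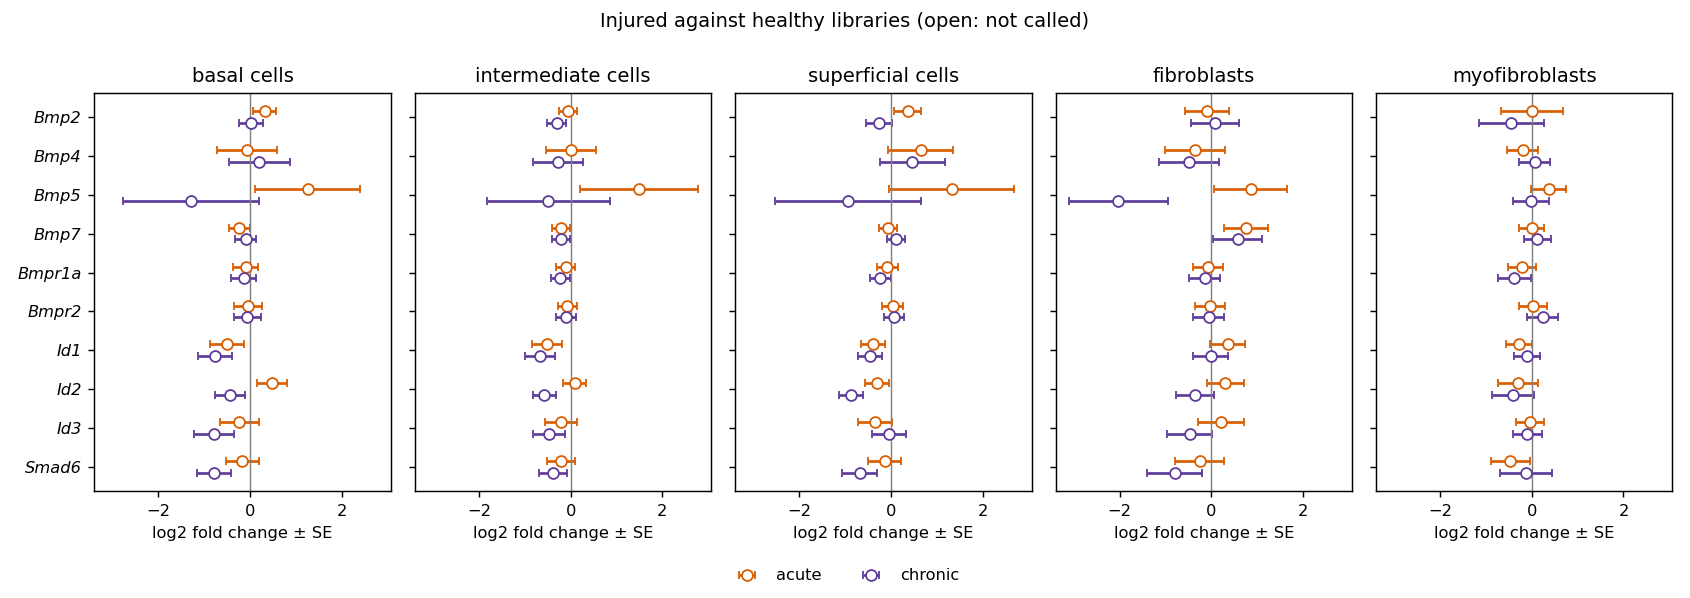
Log2 fold change with its standard error (horizontal axes) of the 10 members (vertical axis) in acute (orange) and chronic (purple) against healthy libraries, in 5 cell classes. All symbols are open, as no member was called, and the widest bars belong to Bmp5 outside myofibroblasts.

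In the stroma, Bmp5 in fibroblasts was measured at 23.3 and 16.2 CPM in healthy, 5.28 and 60.0 CPM in acute and 5.92 and 0 CPM in chronic libraries, the last being the chronic 2 class with few cells and low mesenchymal markers (chronic log2 fold change -2.03 ± 1.07 SE, adjusted p = 0.79; -8.23 to -1.44 over 13 alternatives). The sub-clusters differed too, as the Inmt and Hspa1b fibroblasts were 692 and 468 of 1550 in acute 2 and 28 and 21 of 271 in acute 1. Within the Pcolce2 fibroblasts Bmp5 was 4.99 CPM in acute 1 and 13.1 CPM in acute 2. In myofibroblasts Bmp5 was measured at 348 and 227 CPM in healthy, 395 and 337 CPM in acute and 189 and 380 CPM in chronic libraries, with overlap (acute log2 fold change 0.37 ± 0.38 SE, adjusted p = 1.00). Bmp4 in fibroblasts, at 486 and 493 CPM in healthy, 274 and 486 CPM in acute and 583 and 123 CPM in chronic libraries, had both its highest and its lowest value in the chronic pair. Bmp7 in myofibroblasts stayed within 148 to 184 CPM over the 6 libraries. A test of whether the injury effect differed between myofibroblasts and fibroblasts called 0 members in acute and 0 in chronic libraries by edgeR's quasi-likelihood test and by DESeq2, against 0% of 10789 genes in each, with 0 members at an unadjusted p under 0.05. The lowest were Bmp7 (difference of log2 fold changes -0.79 ± 0.39 SE) and Id1 (-0.65 ± 0.34 SE) in acute, both with an adjusted p of 1. The Gatm myofibroblasts, where Id1 was lower, were 1207 of 2736 in acute 2 and 21 of 157 in acute 1, against 139 of 1030 and 49 of 346 in the healthy libraries. The part of this makeup was not tested.

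A wider list of 57 BMP pathway genes, of which 45 were present in all tables, placed these members among their partners. Between mesenchymal and urothelial cells 31 of the 45 were higher, against 31.4% of all genes tested, and 8 lower, against 37.7%, with a median log2 fold change of 1.27, against -0.12 over all genes tested. All 10 antagonists and modulators tested were higher in mesenchymal cells, among them Sostdc1, a secreted BMP antagonist, at 27.4 ± 9.17 against 0.285 ± 0.182 CPM (SD, n = 6, log2 fold change 6.57), Fstl1 (6.47) and Htra1 (5.79). The co-receptor endoglin, Eng, was 3.33 higher on the log2 scale, and the type I receptor Acvrl1 3.18 higher. Bmp8b, at 0.655 ± 0.317 CPM in urothelial and 0 CPM in mesenchymal cells of all 6 libraries, and Msx2 (-2.54) were among the 8 that were lower.

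In myofibroblasts against fibroblasts 11 of 37 pathway genes were higher, against 10.9% of all genes tested, and 2 lower, against 8.25%, with a median log2 fold change of 0.14, against 0.00 over all genes tested. Sostdc1 was measured at 41.2 ± 10.7 CPM in myofibroblasts and 13.2 ± 7.97 CPM in fibroblasts (log2 fold change 1.42). Also higher were Inhbb (3.73) and Gdf11 (2.16), ligand genes of the wider TGF-beta superfamily that the list includes. The 2 that were lower were Smad9, which encodes SMAD8, at 2.81 ± 2.05 against 11.3 ± 2.62 CPM (-2.08), and Id4 (-1.33). In this comparison 4 antagonists and modulators were higher, Twsg1, Sostdc1 and Chrd among them, beside 3 member ligands.

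In basal against intermediate cells 24 of 37 pathway genes were higher, against 23.8% of all genes tested, and 2 lower, against 21.5%, with a median log2 fold change of 0.34 against 0.00 over all genes tested. Among them were the inhibitory Smad7 (1.30), at 47.1 ± 10.5 against 18.3 ± 4.40 CPM, the target Id4 (1.62), the pseudoreceptor Bambi (0.93) and the antagonist Fst (2.21). Superficial against intermediate cells had 8 of 37 higher, against 24.9% of all genes tested, and 17 lower, against 26%, with Smad7 (-1.32), Id4 (-1.01) and Fst (-2.85) lower and the ligands Bmp3 (1.09), Bmp8a (1.38) and Bmp8b (2.07) higher. Cycling against non-cycling urothelium had 5 of 39 higher, against 17.1% of all genes tested, and 4 lower, against 21.5%. Endothelial cells had 7 of 33 higher than mesenchymal cells, against 15.5% of all genes tested, led by Hey1 (4.02) and Eng (2.24), at 399 ± 168 CPM (n = 5), with Acvrl1 (0.87) and Smad1 (0.99) also higher, and 12 lower, against 22.1%, among them 7 of 8 antagonists. After injury 0 pathway genes were called in any of the 5 classes by edgeR's quasi-likelihood test.

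Over 63 sums of class and library and 9072 genes, the genes whose log2 level was most like that of each ligand were, as a description with no test, Serpinh1, Htra1 and Fbln5 for Bmp4 (Pearson r = 0.95, 0.94 and 0.94), Dkk2, Avpr1a and Col6a3 for Bmp5 (0.90, 0.90 and 0.88), Tspan8, Bmp3 and Wnt4 for Bmp7 (0.85, 0.80 and 0.77) and Basp1, Jtb and Stk39 for Bmp2 (0.65, 0.62 and 0.61). The sums share libraries, depth and free RNA. Serpinh1 encodes a collagen chaperone, Fbln5 and Col6a3 encode matrix proteins, and Bmp3 is itself a ligand of the BMP family.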

How the data were processed

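Bladder mucosa cells of 6 libraries, 2 per condition, were profiled by droplet single-cell RNA-seq. The authors deposited 1 table of UMI counts per gene and barcode for each library, made with Cell Ranger 2.1.1 on mm10 per the labels, after a limit on mitochondrial reads that the values show at about 10%. The tables differ in their lists of genes, 1 ends in the middle of a line, which was dropped, and 14450 genes were listed in all 6. The members and gene lists were chosen with earlier results of these data known.

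Cells with more than 500 genes and under 10% mitochondrial UMIs were kept (55398), 4469 probable doublets were removed by Scrublet scores at 0.8% per 1000 cells, and the 1995 cells of a doublet cluster, some of them among those doublets, were left out, which left 49786 cells. Counts were transformed by sctransform 0.4.2 and integrated with Seurat 5.3.0, with members and pathway genes left out of the features, clustered with leidenalg 0.10.2 (scanpy 1.11.5, Python 3.11.15) into 20 clusters and named by markers. The naming rules were settled after the clusters were seen. UMIs were summed per library and class with at least 20 cells and tested with edgeR 4.0.16 (quasi-likelihood, TMM, filterByExpr, R 4.3.3), with Benjamini-Hochberg adjusted p under 0.05 over all genes tested, and with library as a block between classes. All 6 libraries entered the injury fits. The methods name sequencing batches, but which library was in which batch is not given in the sources used here, so batch and library cannot be told apart. The test was also run on simulated counts, for acute injury in myofibroblasts and for myofibroblasts against fibroblasts. These counts had the same set spread for every gene and no differences between libraries. That run therefore cannot show how the test behaves at the spread of these libraries. The text names the 10 members and, where called, genes of the pathway list.

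Alternatives were DESeq2 1.42.0, no filter on low counts, doublets kept, a stricter cell filter (over 1000 genes, under 5% mitochondrial), no integration, a replicate block, each library left out and, added after the data were seen, a depth block. Of the 57 pathway genes, 12 were not analysed here, and some results of the list are not reported here. Poisson intervals cover counting error only.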

Additional observations from a re-analysis of the deposited data

How the results depend on the processing

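Only member results that were called, or that passed a limit on size (between classes) or unadjusted p (after injury), were followed under the alternatives. Small uncalled changes, whose direction turns most easily, were left out. Of the 519 member fold changes followed, 485 kept their direction and side of the threshold, 30 lost the call and 2 reversed. Another 2 gained it, Bmp4 in basal cells without acute 1 (0.35, edgeR adjusted p = 0.042) and Bmp7 in mesenchymal cells. The reversed ones were Smad6 in endothelial against mesenchymal cells, uncalled at -0.28, which ranged from -0.53 to 0.22 with 1 library left out, at 0.22 without healthy 1 and 0.11 without acute 1. The number of members called moved by over 1.5 times in 3 of 215 cases, to 2 in basal against intermediate cells without integration and to 2 in cycling cells without integration or without acute 1. The cause was not tested.

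Counts of genes called after injury moved most. DESeq2 called 13 and 27 genes (acute and chronic) in basal, 10 and 56 in intermediate and 11 and 23 in superficial cells, 23 and 35 in fibroblasts, 8 and 8 in myofibroblasts and 1 for the chronic difference between stromal classes. Without the filter on low counts there were 3 in acute superficial cells, 12 and 6 in fibroblasts, 94 and 49 in myofibroblasts, and 30 and 21 for the acute and chronic differences. Without integration there were 1 and 8 in superficial cells, 2 and 2 in fibroblasts, 0 in acute myofibroblasts and 1856 for basal vs intermediate cells, against 5832, with basal cells of 2 libraries, and injury in basal cells could not be fitted. The depth block gave 1 in acute basal, 1 in acute superficial, 9 in acute and 1 in chronic myofibroblasts.

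Leaving out 1 library at a time gave 0 to 41 genes in acute basal, 0 to 67 in acute intermediate and 0 to 46 in acute superficial cells, 0 to 8 in acute and 0 to 4 in chronic fibroblasts and 0 to 29 in acute myofibroblasts, with the highest acute counts all without acute 1, 0 to 13 and 0 to 25 for the acute and chronic differences, and 1332 (without acute 2) to 2356 between stromal classes.

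Libraries of equal replicate number deviated together between healthy and acute, with correlations of deviations of 0.15 to 0.37. Between acute and chronic libraries the correlations were -0.23 to -0.13. Between healthy and chronic they were -0.36 to 0.14, with the positive value in fibroblasts. Healthy 1, acute 1 and chronic 2, the deeper libraries, thus tended to deviate to the same side. The replicate block gave 1 gene in acute superficial cells and 0 in chronic fibroblasts and moved no other count by over 1.5 times.

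Low shares of cells limit Bmp4 and Bmp5 in urothelium. The part of background RNA there, and in the Bmp2 of basal and intermediate cells, was not tested. Low counts limit Smad6, and few cells limit endothelial cells and the fibroblasts of chronic 2. Of 110 shares of cells with a UMI, 96 moved when all UMIs of all cells were used. Thinning can only lower the share of a given set of cells, and these settings cover different cells. The count therefore does not measure the part of depth.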

Other observations

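Mural cells, the pericytes and smooth muscle cells around vessels, reached enough cells in the 2 acute libraries only, with 23 and 122 cells, and are given without a test. Id2 was measured there at 667 and 1688 CPM and Id3 at 2781 and 4839 CPM in acute 1 and acute 2, against 94.5 and 190 CPM of Id2 and 1686 and 2618 CPM of Id3 in the myofibroblasts of the same libraries. Bmp4 in mural cells was 18.8 and 15.5 CPM, against 496 and 360 CPM in those myofibroblasts.

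Among immune classes, Id2, a factor that innate lymphocytes depend on, was measured at 618, 692 and 1097 CPM in the NK and T cell class of healthy 1, healthy 2 and acute 2. That class also held 12 urothelial markers at 11580, 13880 and 6554 CPM, above its own 4 NK and T cell markers at 6598, 8121 and 5412 CPM, and the part of this mixture was not tested. Macrophages ranged from 203 to 925 CPM of Id2 over the 6 libraries. Those of healthy 1, at 685 CPM, held the NK and T cell markers at 2055 CPM, against 147 to 273 CPM in the other libraries. Cycling mesenchymal cells, with 26 cells in healthy 1 and 47 in acute 2, held Bmp5 at 148 and 252 CPM and Bmp4 at 425 and 270 CPM.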
